A study of Mus musculus with 4 samples.

Results

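The genes described here make up the acid lysosome and the autophagy pathway that delivers to it. They were taken from a read count table of mouse natural killer T (NKT) cells by symbol. Every listed symbol that begins with Atp6v, the name of subunits of the vacuolar proton pump (V-ATPase), was taken. So was every listed cathepsin with a single-letter suffix, apart from 1 left out when the set was drawn up. The lysosomal membrane proteins Lamp were added, with autophagy genes recognised by their symbols, such as those that begin with Atg. This gave 52 of the 12020 genes read, namely 16 V-ATPase subunit genes, 1 V-ATPase pseudogene, 10 cathepsins, 3 Lamp genes and 22 autophagy genes. After a filter on low counts, 50 members were tested among 11312 genes; Ctsl and Lamp3 did not pass it.

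The cells were GFP-high NKT cells from C57BL/6 mice aged 10 to 12 weeks that carried a Vα14 receptor transgene (Va14 Tg) and 1 GFP allele at the Cxcr6 locus (cxcr6gfp/+), which all groups share. Both groups are labelled liver, although the protocol text also names spleens for the sort and islets for the RNA. There were 2 libraries of cells stimulated on plate-coated mCD1d-PBS57 tetramers, which present a lipid to the NKT receptor, and 2 libraries of resting cells, called 4 and 5 in each group after their column names. No label gives the length of stimulation or says whether the 2 libraries of a group are from different mice. The p-values therefore cover no more than how these libraries vary, and that variation may be technical.

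The V-ATPase is a rotary pump: its membrane sector V0 carries protons into the lysosome while its cytosolic sector V1 burns ATP, and the acid it makes lets cathepsins, the main lysosomal proteases, work. Autophagy wraps cytoplasm in a double membrane, the autophagosome, and fuses it with lysosomes. NKT cells are known to need autophagy genes for their development, and T cells adjust the pathway when they are activated.

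Library totals were 5398551 to 5495521 counts in tetramer libraries and 4168438 to 4433048 in resting libraries. All 10 NKT and T cell markers were listed, with a summed level of 2662 to 2860 CPM in tetramer libraries and 2942 to 3030 CPM in resting libraries. CPM is the count scaled to the library total after adjustment by the trimmed mean of M-values (TMM). Of these markers Cxcr6 and Klrb1c, the NK1.1 antigen, were called lower in tetramer libraries. Markers of other cell types were also counted, and most lists summed lower in tetramer than in resting libraries, although not every marker was lower, and Itgax was called higher. Those of macrophages and Kupffer cells, 4 of 12 listed, summed to 9.0 to 11.3 CPM in tetramer libraries and 21.3 to 26.7 CPM in resting libraries. The others, Lyz2, C1qa, C1qb, C1qc, Marco, Clec4f, Vsig4 and Cd5l, have no row among the genes read and were not analysed here. Neutrophil markers, 2 of 4 listed, summed to 1.84 to 3.24 CPM in tetramer and 18 to 19.5 CPM in resting libraries. Dendritic cell markers, 3 of 4, summed to 72.8 to 259 CPM in tetramer and 261 to 263 CPM in resting libraries. Xcr1 made up most of that sum, at 65.3 and 249 CPM in tetramer libraries 4 and 5. In resting libraries 4 and 5 Xcr1 was at 257 and 250 CPM. Hepatocyte markers, 3 of 5, summed to 10.6 to 13.8 CPM in tetramer and 30.04 to 52.1 CPM in resting libraries. Pancreatic islet hormones, 5 of 5 listed, summed to 234 and 425 CPM in tetramer libraries 4 and 5, and to 264 and 972 CPM in resting libraries 4 and 5. In bulk libraries, fewer cells of a type and less RNA per cell cannot be told apart.

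The 3 gene groups differed in how many of their members were called. Among 22 autophagy genes 1 rose and 4 fell, and among the 9 cathepsins tested 0 rose and 4 fell, while among 16 V-ATPase subunits 0 rose and 0 fell (edgeR's quasi-likelihood test, adjusted p below 0.05). Neither of the 2 Lamp genes tested was called. Of all 11312 genes tested, 26.4% were called, 14.3% higher and 12.1% lower. That balance depends on the scaling: 1620 genes were higher and 1366 lower with TMM, and 1193 higher and 2250 lower with library totals. The called share was 22.7% in the autophagy genes, 44.4% in the cathepsins and 0% in the V-ATPase, so that of the autophagy genes lay near the background, that of the cathepsins above it and that of the V-ATPase below it. Without tetramer library 4, 1 cathepsin and 0 autophagy genes were lower and 0 higher, and 622 genes of the whole table were higher and 313 lower. Lower autophagy genes also numbered 0 without tetramer library 5 and 1 without resting library 5. The median log2 fold change, tetramer over resting, was -0.33 in autophagy genes, -0.39 in cathepsins and 0.05 in V-ATPase subunits, against -0.06 over all genes tested. With library totals in place of TMM the median of all genes was -0.35, and the medians of the groups were -0.62, -0.67 and -0.24, so the sign of the V-ATPase median depends on the scaling.

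**Figure D1:**
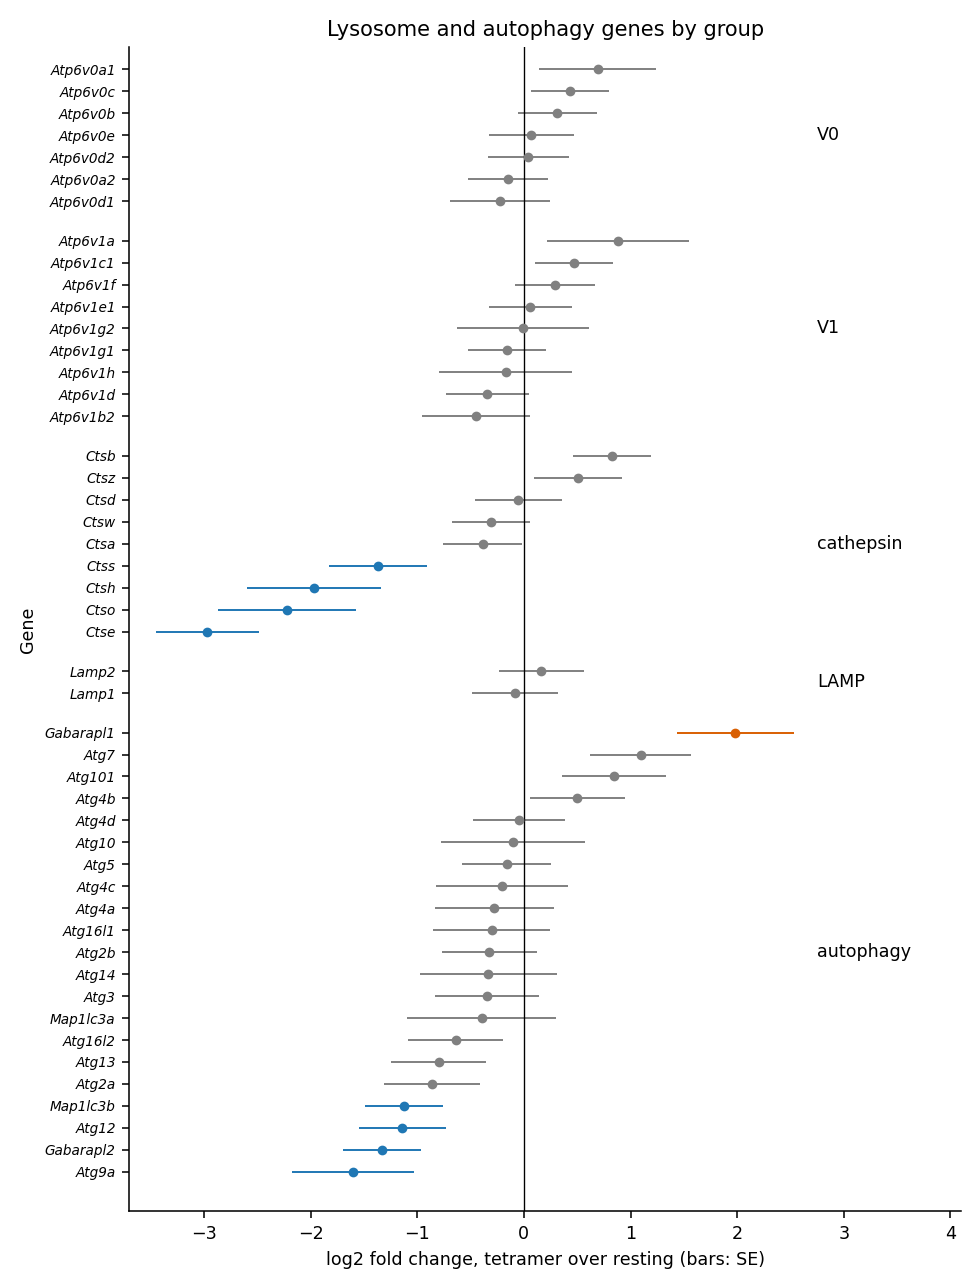
The horizontal axis is the log2 fold change (tetramer over resting) for the tested members that are reported, without the pseudogene, with one row per gene, grouped as V0, V1, cathepsin, LAMP and autophagy. Bars are SE from the edgeR fit; the 1 gene called higher is orange, the 8 called lower are blue and the rest are grey. V-ATPase genes lie between -0.45 and 0.89, while the cathepsins reach -2.97.

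The autophagy genes Gabarapl1, Gabarapl2 and Map1lc3b were called, the first of them higher and the others lower in tetramer libraries. Gabarapl1 was at 22.9 and 21.4 CPM in tetramer libraries 4 and 5, against 4.14 and 7.05 CPM in resting libraries 4 and 5. Gabarapl2 was at 101 and 83.1 CPM in tetramer libraries and 239 and 224 CPM in resting libraries. Map1lc3b, whose protein is the one most often used to follow autophagosomes, was at 236 and 300 CPM in tetramer libraries and 553 and 614 CPM in resting libraries. For each of these 3 genes the groups did not overlap, as for 65.2% of all genes tested (31.6% higher and 33.7% lower): Gabarapl1 was higher in both tetramer libraries, and Gabarapl2 and Map1lc3b were lower in both.

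Gabarapl1 rose by 1.98 ± 0.55 (SE) on the log2 scale, a 3.96-fold higher mean (edgeR adjusted p = 0.00869). Gabarapl2 fell (log2 fold change -1.33 ± 0.37, edgeR adjusted p = 0.00863), and so did Map1lc3b (-1.12 ± 0.37, edgeR adjusted p = 0.0241). The number of Gabarapl1 counts per Gabarapl2 count was 0.227 and 0.258 in tetramer libraries 4 and 5, against 0.0173 and 0.0315 in resting libraries 4 and 5. Map1lc3a was not called: it lay between 1.43 and 2.23 CPM in tetramer libraries and between 2.14 and 2.69 CPM in resting libraries, with overlapping groups.

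These 3 calls rest on few libraries. Without tetramer library 4 none of the 3 was called (edgeR adjusted p = 0.0994 for Gabarapl1, 0.0762 for Gabarapl2 and 0.301 for Map1lc3b), and without tetramer library 5 Gabarapl2 (0.111) and Map1lc3b (0.0816) were not, nor was Map1lc3b without resting library 5 (0.0792). The strand used in counting is not given, and 23.1% of the 50-base words of Gabarapl1 transcripts in GENCODE M21 also occur, on either strand, in 1700101I11Rik, a neighbour that overlaps its start on the opposite strand, so reads of the pair cannot be told apart there. For Gabarapl2 12.2% and for Map1lc3b 6.01% of such words occur in other genes.

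The promoters of these 3 genes are shown because their transcripts moved in opposite directions. They are the 250 bases before the start given by RefSeq (GRCm38.p6, not the build of the counts). Windows of 300 bases, with 50 more after the start, were searched on both strands for CACGTG, the E-box core, for TCACGTGA, which contains it and is the centre of the CLEAR element that the lysosomal regulator TFEB binds, and for GTAAACA, a forkhead motif of the FoxO type. None of the 3 motifs is in these windows, which therefore carry no capitals. 
Gabarapl1 (chr6:129532942-129533191, plus strand): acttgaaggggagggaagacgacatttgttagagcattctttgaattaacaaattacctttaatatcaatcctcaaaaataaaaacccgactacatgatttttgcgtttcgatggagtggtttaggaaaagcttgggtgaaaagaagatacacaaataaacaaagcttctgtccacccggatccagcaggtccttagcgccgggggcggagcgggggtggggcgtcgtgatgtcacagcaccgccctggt
Gabarapl2 (chr8:111940453-111940702, plus strand): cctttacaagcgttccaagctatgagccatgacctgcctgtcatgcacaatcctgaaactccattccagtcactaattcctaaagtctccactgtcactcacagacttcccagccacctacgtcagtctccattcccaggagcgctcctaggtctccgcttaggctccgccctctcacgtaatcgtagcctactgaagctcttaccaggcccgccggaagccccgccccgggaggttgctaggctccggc
Map1lc3b (chr8:121590188-121590437, plus strand): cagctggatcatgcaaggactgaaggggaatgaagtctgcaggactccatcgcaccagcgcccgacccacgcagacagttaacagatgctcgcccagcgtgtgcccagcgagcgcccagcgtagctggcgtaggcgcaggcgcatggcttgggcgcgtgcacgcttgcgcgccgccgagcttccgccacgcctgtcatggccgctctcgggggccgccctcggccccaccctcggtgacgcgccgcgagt

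**Figure D2:**
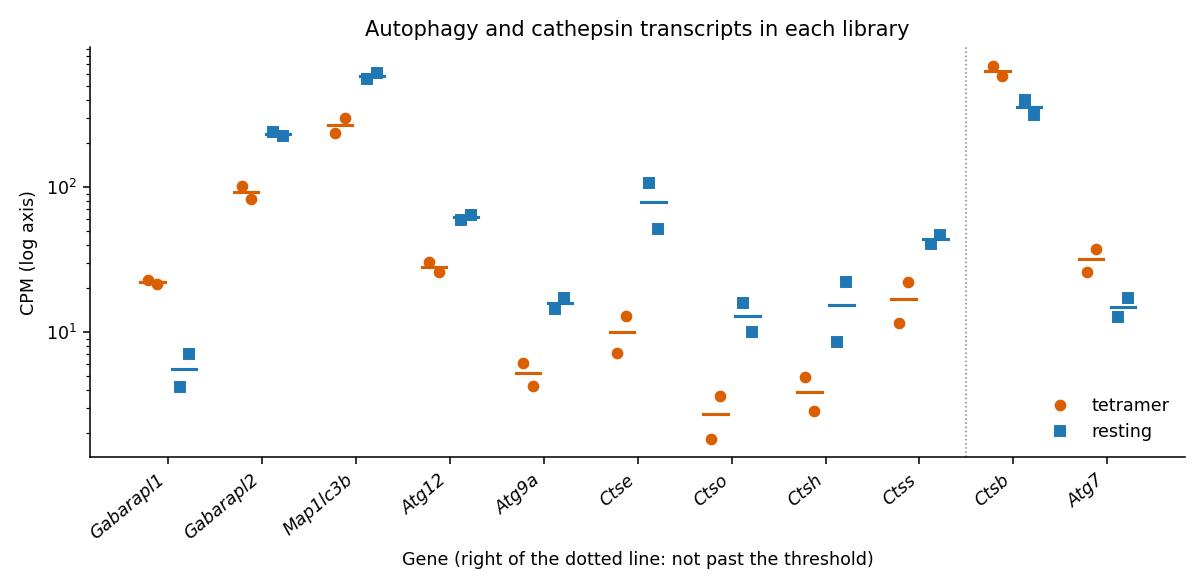
Level of each library in CPM, on a log scale, for the 9 members past the threshold and, right of the dotted line, Ctsb and Atg7, which were not. Orange circles are the 2 tetramer libraries, blue squares the 2 resting libraries and bars their means; Gabarapl1 lies higher in both tetramer libraries, and the other 8 called genes lie lower in both.

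Among the 17 Atg genes, which build the autophagosome, 0 rose and 2 fell. The log2 fold change was negative in 14 of them, of which only these 2 were called, and in 5884 of all 11312 genes tested. The called share was 11.8%, against 26.4% of all genes tested, 14.3% higher and 12.1% lower. Atg9a encodes the scramblase in the vesicles that seed the autophagosome. It was at 6.14 and 4.25 CPM in tetramer libraries 4 and 5, against 14.5 and 17.1 CPM in resting libraries 4 and 5 (log2 fold change -1.60 ± 0.57, edgeR adjusted p = 0.0383). Of the 50-base words of Atg9a transcripts, 30.5% occur in other annotated transcripts, mostly in the overlapping Gm29253. Atg12 encodes the ubiquitin-like protein that is joined to Atg5. It was at 30.3 and 25.9 CPM in tetramer libraries and 59.5 and 64.3 CPM in resting libraries (log2 fold change -1.14 ± 0.41, edgeR adjusted p = 0.0398). For both genes every tetramer library lay below every resting library, yet each call was close to the threshold. Atg12 was called in none of the fits that left out 1 library (edgeR adjusted p = 0.0535 to 0.242), and Atg9a only in that without resting library 4 (0.0266; 0.0752 to 0.279 in the other 3).

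The enzymes around Atg12 were not called. Atg7, the E1-like enzyme that activates Atg12, was at 26.0 and 37.6 CPM in tetramer libraries and 12.6 and 17.1 CPM in resting libraries. Both tetramer libraries of Atg7 were above both resting libraries, with a log2 fold change of 1.10 ± 0.47 that missed the threshold (edgeR adjusted p = 0.0858). Its partners, the E2-like enzymes Atg3 and Atg10, had log2 fold changes of -0.35 ± 0.49 and -0.10 ± 0.67. Atg5 was at 40.3 and 33.6 CPM in tetramer libraries and 46.4 and 36.1 CPM in resting libraries (log2 fold change -0.16 ± 0.42, edgeR adjusted p = 0.809). Atg16l1, which joins Atg5 and Atg12 in a complex on the growing membrane, had a log2 fold change of -0.30 ± 0.55. The related Atg16l2 was at 27.0 and 18.4 CPM in tetramer libraries and 40.2 and 30.6 CPM in resting libraries (edgeR adjusted p = 0.298). The 4 Atg4 genes, which encode cysteine proteases of the pathway, had log2 fold changes of -0.28 for Atg4a, 0.50 for Atg4b, -0.21 for Atg4c and -0.05 for Atg4d. Reads of Atg4a are uncertain, since 51.2% of its 50-base words also occur in the pseudogene Atg4a-ps.

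Atg13, Atg101, Atg2a, Atg2b and Atg14 also stayed short of the threshold. Atg13 and Atg101 bind each other in the Ulk kinase complex, and their values went in different directions. Atg13 was at 22.3 and 19.2 CPM in tetramer libraries, against 36.3 and 36.1 CPM in resting libraries (edgeR adjusted p = 0.181). Atg101 was at 32.5 and 25.9 CPM in tetramer libraries, against 10.8 and 21.8 CPM in resting libraries (edgeR adjusted p = 0.201). The groups did not overlap in either gene. Atg2a, which carries lipid into the growing membrane, was at 16.0 and 33.6 CPM in tetramer libraries and 53.9 and 36.3 CPM in resting libraries (edgeR adjusted p = 0.157), and its relative Atg2b had a log2 fold change of -0.33 ± 0.45. For Atg14, which directs the lipid kinase Pik3c3 to autophagy, the value was -0.33 ± 0.64, with resting libraries at 3.73 and 12.2 CPM around the tetramer libraries at 5.12 and 7.48 CPM.

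The called cathepsins were all lower after stimulation. Ctse, an aspartic protease of the endosome found mainly in immune and epithelial cells, was at 7.16 and 12.9 CPM in tetramer libraries 4 and 5, against 106 and 51.5 CPM in resting libraries 4 and 5. Its log2 fold change was -2.97 ± 0.48 (edgeR adjusted p = 5.87e-05), and its mean fell to 10.1 ± 4.09 CPM in tetramer libraries, against 78.9 ± 38.7 CPM in resting libraries (SD, n = 2 each). Ctse was the only member still called whichever library was left out, with log2 fold changes of -3.45 to -2.34.

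Ctso, a cysteine cathepsin, was at 1.84 and 3.64 CPM in tetramer libraries and 15.7 and 10.0 CPM in resting libraries (log2 fold change -2.22 ± 0.64, edgeR adjusted p = 0.0122). Ctsh, which trims peptides from their amino end, was at 4.91 and 2.83 CPM in tetramer libraries and 8.49 and 22 CPM in resting libraries (log2 fold change -1.97 ± 0.63, edgeR adjusted p = 0.0213). Ctss, which degrades the invariant chain in antigen-presenting cells, was at 11.5 and 22.3 CPM in tetramer libraries and 40.4 and 46.6 CPM in resting libraries (log2 fold change -1.37 ± 0.46, edgeR adjusted p = 0.0285). Each of the 3 lay lower in both tetramer libraries than in either resting library. Ctsh rests on resting library 5: without it the log2 fold change was -1.10 (edgeR adjusted p = 0.223). It was not called without tetramer library 4 (0.0891) or 5 (0.196) either. Neither Ctso (0.236) nor Ctss (0.396) was called without tetramer library 4, and Ctss was not without resting library 5 (0.0609).

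Several marker lists of other cells fell alongside these cathepsins. Besides the summed levels given above, the macrophage growth factor receptor Csf1r was at 3.07 and 5.26 CPM in tetramer libraries and 13.9 and 18.2 CPM in resting libraries, and the B cell receptor chain Cd79b was at 5.73 and 5.87 CPM in tetramer libraries and 13.3 and 20.7 CPM in resting libraries. Resting library 5, where Ctsh and Ctss were highest, also held the highest islet hormone sum, but the islet sums of the groups overlapped. Ctse and Ctso were highest in resting library 4. The part of such cells in the lower cathepsin levels was not tested.

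The other cathepsins did not fall together. Ctsb, a broad cysteine protease, was at 683 and 583 CPM in tetramer libraries and 398 and 315 CPM in resting libraries. Both tetramer libraries were above both resting libraries, but the log2 fold change of 0.83 ± 0.37 missed the threshold (edgeR adjusted p = 0.0930). Ctsz, a carboxypeptidase, had a log2 fold change of 0.51 ± 0.41 and overlapping groups. Ctsd, the main aspartic protease of lysosomes, was at 249 and 113 CPM in tetramer libraries and 125 and 250 CPM in resting libraries, so that the libraries of each group differed more from each other than the group means did, at 181 CPM in tetramer and 188 CPM in resting libraries. Ctsd shares 32.4% of its 50-base words with the overlapping gene Gm49369. Ctsw, a cathepsin of cytotoxic lymphocytes, was at 204 and 257 CPM in tetramer libraries and 237 and 335 CPM in resting libraries (edgeR adjusted p = 0.563). Ctsa, a carboxypeptidase that also protects other lysosomal enzymes, was at 79.2 and 88.0 CPM in tetramer libraries and 95.7 and 123 CPM in resting libraries (edgeR adjusted p = 0.460). Ctsl, which did not pass the filter, had 5 and 3 counts in tetramer libraries and 17 and 9 counts in resting libraries. In the fit with no filter its log2 fold change was -1.71 ± 0.80 (edgeR adjusted p = 0.121).

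**Figure D3:**
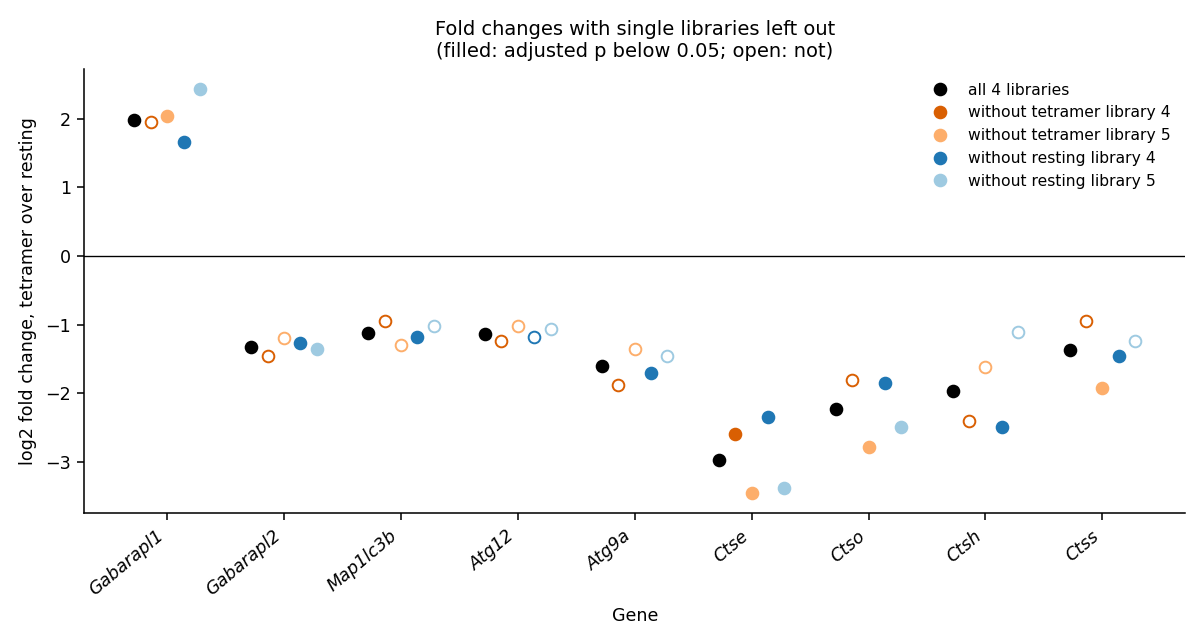
Log2 fold change, tetramer over resting, of the 9 called members with all 4 libraries and with each library left out in turn. Filled points have an edgeR adjusted p below 0.05 and open points do not; without tetramer library 4 only Ctse is filled, while the 9 directions stay as they are with all 4 libraries.

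None of the 16 V-ATPase subunits was called by edgeR, DESeq2 or limma-voom, and 0 had an unadjusted p below 0.05 by edgeR. Among the 7 genes of the membrane sector V0, log2 fold changes ranged from -0.23 to 0.69. Atp6v0a1, an isoform of the large subunit that lines the proton path, was at 14.1 and 13.1 CPM in tetramer libraries and 7.46 and 9.40 CPM in resting libraries, which do not overlap (log2 fold change 0.69 ± 0.55, edgeR adjusted p = 0.364). Its relative Atp6v0a2 was at 111 and 212 CPM in tetramer libraries 4 and 5, around 175 and 182 CPM in the resting libraries. Atp6v0d2, an isoform of the d subunit best known from osteoclasts, showed the same split, with 123 and 247 CPM in tetramer libraries 4 and 5, against 188 and 170 CPM in resting libraries. The log2 fold change of Atp6v0d2 was 0.04 ± 0.38 (edgeR adjusted p = 0.948), and its sign changed with library totals, limma-voom and single libraries left out. For both genes tetramer library 4 was lowest and tetramer library 5 highest. Atp6v0d1, the widely expressed d isoform, had a log2 fold change of -0.23 ± 0.47. Atp6v0b, a subunit of the proton-carrying ring, was at 93.1 and 85.0 CPM in tetramer libraries and 65.7 and 77.8 CPM in resting libraries, and the small subunit gene Atp6v0e had a log2 fold change of 0.07 ± 0.40.

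The 9 genes of the ATP-burning sector V1 had log2 fold changes of -0.45 to 0.89. Atp6v1a, the catalytic subunit, was at 7.37 and 5.06 CPM in tetramer libraries and 4.76 and 1.92 CPM in resting libraries (log2 fold change 0.89 ± 0.67, edgeR adjusted p = 0.339). Its count in resting library 5 was 9, which limits the precision. Atp6v1b2, whose product alternates with that subunit in the ring, had a log2 fold change of -0.45 ± 0.50. Atp6v1c1, which helps to join V1 to V0, was at 104 and 142 CPM in tetramer libraries and 91.8 and 85.5 CPM in resting libraries (log2 fold change 0.47 ± 0.37, edgeR adjusted p = 0.355). The stalk and rotor subunits Atp6v1d, Atp6v1e1, Atp6v1f, Atp6v1g1 and Atp6v1g2 and the regulatory subunit Atp6v1h ranged from -0.34 (Atp6v1d) to 0.29 (Atp6v1f). In Atp6v1d both tetramer libraries, at 50.5 and 48.5 CPM, lay below both resting libraries, at 64.4 and 61.3 CPM (edgeR adjusted p = 0.541).

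Atp6v0c, which encodes the main ring protein, shares sequence with its processed pseudogene Atp6v0c-ps2. Of the 50-base words of the pseudogene 90.1% occur in other genes, against 10.8% of those of all annotated Atp6v0c transcripts, which are longer. How shared reads were counted is not given, so the counts of both are uncertain. The pseudogene had 966 and 730 counts in tetramer libraries 4 and 5, where Atp6v0c had 951 and 774. In resting libraries 4 and 5 it had 517 and 637 counts, where Atp6v0c had 535 and 699. The count of the pseudogene was thus 0.911 to 1.02 times that of the gene in the 4 libraries. In GENCODE M21 (GRCm38) the pseudogene on chromosome 6 is 465 bases long, and 464 of these are the same in the transcript of Atp6v0c from chromosome 17. The stretch around the only difference is shown because only reads across it could tell the pseudogene from that stretch of the gene; it runs from base 81 to base 140 of the pseudogene, the capital marks the differing base, and both strings are in the sense direction.
Atp6v0c-ps2: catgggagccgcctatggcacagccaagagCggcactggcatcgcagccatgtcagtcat
Atp6v0c: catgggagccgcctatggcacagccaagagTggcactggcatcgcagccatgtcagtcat

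The log2 fold changes were 0.51 ± 0.37 for the pseudogene and 0.43 ± 0.37 for Atp6v0c, and neither was called (edgeR adjusted p = 0.317 and 0.399).

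Lamp1 and Lamp2, the main glycoproteins of the lysosomal membrane, showed no called change. Lamp1 was at 73.9 and 39.4 CPM in tetramer libraries and 57.6 and 62.4 CPM in resting libraries, and Lamp2 at 59.3 and 52.8 CPM in tetramer libraries and 41.0 and 59.2 CPM in resting libraries. The groups overlapped for both genes. Log2 fold changes were -0.08 ± 0.40 for Lamp1 (edgeR adjusted p = 0.902) and 0.16 ± 0.40 for Lamp2 (edgeR adjusted p = 0.796), and both changed sign in at least 1 other fit. Lamp3, which did not pass the filter, had 17 and 9 counts in tetramer libraries and 3 and 7 counts in resting libraries, with a log2 fold change of 1.31 ± 0.79 in the fit with no filter (edgeR adjusted p = 0.234).

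Promoters in the RefSeq table matched 38 of the 52 members by symbol, with 44 windows in all. CACGTG occurred in 27.3% of these windows, against 9.96% of the windows of all genes tested. TCACGTGA occurred in 13.6% of the members' windows and 1.89% of those of all genes tested, and GTAAACA in 2.27% and 2.63%. Matches were in windows of 12 members, namely Atg3, Atg5, Atg7, Atg14, Atp6v0b, Atp6v0d1, Atp6v0e, Atp6v1a, Ctsa, Ctsd, Ctsl and Lamp1 for CACGTG. Of the 9 called members, 6 had a window, and none of these held CACGTG. A match is a description of these letters, not a binding site. The 250 bases before the start of 3 genes are shown as examples from a membrane protein, a protease and a pump subunit that were not called, with CACGTG and TCACGTGA in capitals.
Lamp1 (chr8:13158911-13159160, plus strand): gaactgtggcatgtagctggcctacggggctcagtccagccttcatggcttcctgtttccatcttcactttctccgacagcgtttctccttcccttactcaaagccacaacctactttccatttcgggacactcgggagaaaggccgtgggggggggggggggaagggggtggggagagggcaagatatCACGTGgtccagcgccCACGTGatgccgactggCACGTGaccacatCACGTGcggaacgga
Ctsd (chr7:142387828-142388077, minus strand): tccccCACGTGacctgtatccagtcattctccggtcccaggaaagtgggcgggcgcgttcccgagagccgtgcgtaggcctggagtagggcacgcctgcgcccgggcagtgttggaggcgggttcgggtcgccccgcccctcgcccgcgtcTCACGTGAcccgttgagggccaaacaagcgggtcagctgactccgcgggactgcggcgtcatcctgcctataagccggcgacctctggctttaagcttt
Atp6v1a (chr16:44139260-44139509, minus strand): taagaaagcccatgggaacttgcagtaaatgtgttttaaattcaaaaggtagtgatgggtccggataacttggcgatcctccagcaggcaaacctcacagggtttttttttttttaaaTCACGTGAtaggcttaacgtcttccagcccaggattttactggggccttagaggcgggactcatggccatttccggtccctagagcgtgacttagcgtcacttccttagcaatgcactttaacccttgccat

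Other genes of the pathway were read from lists drawn up by function. Among 20 tested autophagy genes without the Atg name, 0 rose and 7 fell (35.0% called, against 26.4% of all genes tested). Their median log2 fold change was -0.54. The fall was largest for Wipi1, a reader of the lipid signal that Pik3c3 makes: it was at 0.614 and 0.202 CPM in tetramer libraries and 6.84 and 9.19 CPM in resting libraries (edgeR adjusted p = 0.000538). It had 4 counts in the tetramer libraries together and 76 in the resting libraries, a scaled ratio of 0.0509 (95% exact interval 0.0135 to 0.136, counting error only). Ulk2, a kinase that starts autophagy, was at 6.55 and 4.05 CPM in tetramer libraries and 31.3 and 22.7 CPM in resting libraries, and its partner Rb1cc1 at 45.8 and 70.2 CPM in tetramer libraries and 254 and 122 CPM in resting libraries. Their edgeR adjusted p values were 0.00235 and 0.00306, and the call was lost without tetramer library 5 for Ulk2 and without resting library 4 or tetramer library 4 for Rb1cc1. With single libraries left out the list had 3 falls without tetramer library 4, 4 without tetramer library 5 and 5 without either resting library, with 1 rise without resting library 5.

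Cargo receptors link what is to be degraded to the autophagosome. Of 12 tested, 1 rose and 5 fell (50% called, against 26.4% of all genes tested). Calcoco1 fell most, by 2.34 on the log2 scale, at 1.23 and 0.809 CPM in tetramer libraries and 6.22 and 4.27 CPM in resting libraries (edgeR adjusted p = 0.0188, a call lost by DESeq2, under the stricter filter and without tetramer library 4 or 5). Bnip3l, the mitochondrial receptor NIX, was at 37.4 and 46.1 CPM in tetramer libraries and 228 and 128 CPM in resting libraries (edgeR adjusted p = 0.000354), and was called in all fits. The member that rose, Phb2, is a prohibitin of the inner mitochondrial membrane with other roles too, at 197 and 119 CPM in tetramer libraries and 33.8 and 66.0 CPM in resting libraries (edgeR adjusted p = 0.00366, not called without tetramer library 4). Without tetramer library 4 the list had 0 rises and 1 fall, and without tetramer library 5 1 rise and 2 falls.

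Lysosomal hydrolases other than cathepsins were called in 9 of 32 cases (28.1%, against 26.4% of all genes tested), 1 higher and 8 lower. Their median log2 fold change was -0.72. Acp5, a tartrate-resistant acid phosphatase, fell most, to 13.7 and 12.9 CPM in tetramer libraries, against 63.0 and 76.1 CPM in resting libraries (edgeR adjusted p = 0.000247). Gusb, the glucuronidase, rose to 49.1 and 35.2 CPM in tetramer libraries, against 12.4 and 9.40 CPM in resting libraries (edgeR adjusted p = 0.00357, not called without tetramer library 4). The falls in this list numbered 1 without tetramer library 4, 3 without tetramer library 5 and 5 without resting library 4. Among 21 lysosomal membrane proteins and transporters 0 rose and 2 fell (9.52% called, against 26.4% of all genes tested). Of these Cd63, a tetraspanin, was at 3.68 and 3.24 CPM in tetramer libraries and 7.46 and 18.2 CPM in resting libraries (log2 fold change -1.88 ± 0.64, edgeR adjusted p = 0.0292), a call lost without resting library 5 or either tetramer library. Falls in that list numbered 1 without resting library 5 or either tetramer library and 4 without resting library 4.

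The list drawn up as cathepsin inhibitors, which holds cystatins, serpins and related proteins, went the other way: 4 of 9 rose and 1 fell. The called share was 55.6%, against 26.4% of all genes tested, and the median log2 fold change was 0.95. Serpina3g, a serpin known to inhibit cysteine cathepsins, rose to 139 and 152 CPM in tetramer libraries, against 7.87 and 26.3 CPM in resting libraries (log2 fold change 3.09 ± 0.46, edgeR adjusted p = 2.46e-05). Cst7, cystatin F, a cysteine protease inhibitor of lymphocytes, was at 462 and 443 CPM in tetramer libraries and 129 and 163 CPM in resting libraries (edgeR adjusted p = 0.00197). The other members that rose were Serpinb6b, a call lost without tetramer library 4, and Serpinb9, which is best known as an inhibitor of granzyme B. Serpinb6a was at 8.18 and 13.6 CPM in tetramer libraries and 51.4 and 45.9 CPM in resting libraries (log2 fold change -2.16 ± 0.47, edgeR adjusted p = 0.00130, not called without tetramer library 4). Without tetramer library 4 the list had 3 rises and 0 falls.

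In the sorting list 2 of 11 rose and 1 fell (27.3% called, against 26.4% of all genes tested). Vps29, a retromer subunit, was at 82.3 and 49.0 CPM in tetramer libraries and 19.1 and 13.7 CPM in resting libraries (edgeR adjusted p = 0.00164, not called without tetramer library 4), and Gnptab, which makes the mannose phosphate tag, rose by 1.71 ± 0.46 on the log2 scale (not called without tetramer library 5). Gga2, a carrier from the Golgi, was at 39.7 and 60.1 CPM in tetramer libraries and 96.7 and 169 CPM in resting libraries (edgeR adjusted p = 0.00979, not called without resting library 5 or tetramer library 4). Without tetramer library 4 the sorting list had 1 rise and 0 falls, without tetramer library 5 it had 1 and 1, without resting library 4 it had 3 and 1, and without resting library 5 it had 2 and 0. Among 14 regulators of lysosomal genes and their Rag GTPase partners 0 rose and 2 fell, Fnip2 and Lamtor3. The called share was 14.3%, below the 26.4% of all genes tested. Fnip2, a partner of folliculin, was at 20.9 and 24.5 CPM in tetramer libraries and 34.2 and 79.3 CPM in resting libraries (log2 fold change -1.32 ± 0.45, edgeR adjusted p = 0.0303), and -0.57 without resting library 5, where it was not called. Lamtor3, a subunit of the Ragulator complex, fell by 1.26 and was not called without resting library 4. Both calls were lost by limma-voom and without either tetramer library. Tfeb, the transcription factor best known for inducing lysosomal genes, was at 19.6 and 12.7 CPM in tetramer libraries and 21.1 and 23.3 CPM in resting libraries (edgeR adjusted p = 0.516). Its relative Tfe3 was at 26.6 and 16.4 CPM in tetramer libraries and 7.67 and 9.19 CPM in resting libraries (edgeR adjusted p = 0.0568). Of 11 V-ATPase accessory and assembly genes, including Tcirg1, the a3 isoform, 0 rose and 0 fell in the main edgeR fit, against 26.4% called of all genes tested. DESeq2 and the stricter filter each called 1 higher and 1 lower. The fit with the column number as a block called 2 higher and 1 lower. Library totals and limma-voom each called 0 higher and 1 lower.

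**Figure D4:**
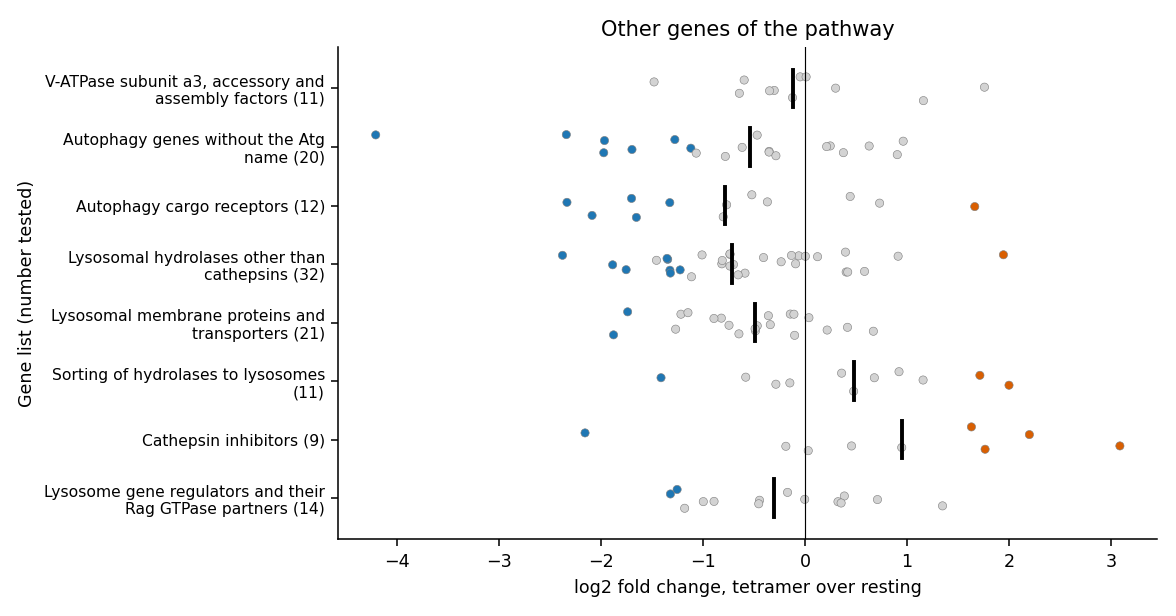
Each point is a tested gene of 8 lists of other lysosome and autophagy genes, placed by its log2 fold change (tetramer over resting), with the number tested in parentheses. Orange points were called higher, blue points lower and grey points neither, and black bars are medians, which range from -0.79 for cargo receptors to 0.95 for protease inhibitors.

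Summed over its members, the autophagy group was at 826 and 804 CPM in tetramer libraries 4 and 5, against 1360 and 1392 CPM in resting libraries 4 and 5. The V-ATPase group summed to 1150 and 1239 CPM in tetramer libraries and 1058 and 1158 CPM in resting libraries, and the cathepsins to 1326 and 1142 CPM in tetramer libraries and 1064 and 1221 CPM in resting libraries. The tetramer sums of autophagy genes lay below both resting sums, those of the V-ATPase and of the cathepsins overlapped the resting ones. These sums follow the genes with most counts, so that of the cathepsins carries the values of Ctsb and not those of the 4 members that fell.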

How the data were processed

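RNA of sorted NKT cells was measured by sequencing in 2 tetramer-stimulated and 2 resting libraries. The values deposited by the authors are raw counts: whole numbers for each gene symbol, with different library totals. Bowtie2, DESeq2 and the build mm9 appear, without tool versions, per the submitters' processing notes. Tool and strand of counting, and the treatment of shared reads: not given in the sources used here. A column's name gives its group and 4 or 5, which is no title's replicate number, so columns were matched to groups only. The table lists genes with at least 1 count in every library; 1 of its 12021 rows holds a cell that is not a number and was left out.

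Counts were tested with edgeR 4.0.16 (R 4.3.3) over all genes that passed its default filter (minimum count 10), with TMM scaling and Benjamini-Hochberg adjustment over 11312 genes at 0.05. SE is the log2 fold change divided by the square root of F. The fit was also run on simulated counts with few changed genes, as many up as down, and the same dispersion for every gene. That setting differs from these data, so it does not show whether the scaling or the calls hold here. DESeq2 1.42.0 and limma-voom (limma 3.58.1), other scalings and filters, the column number as a block and leaving out each library were alternatives. Within groups, counts differed beyond sampling noise (chi-square 29.7 times its degrees of freedom in the tetramer pair, 32.6 in the resting pair).

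The members, groups and lists were chosen with earlier results of these data known. Members past the threshold are given in full, with the member of highest CPM and of smallest p among those not called in each gene group, apart from items that are not reported here; from each other list, the called gene with the largest rise and fall. Other genes given with values were chosen after these were seen. Promoters are from RefSeq (GRCm38.p6), and shared 50-base words and the pseudogene from GENCODE M21 transcripts.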

Additional observations from a re-analysis of the deposited data

How the results depend on the processing

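The calls depend most on tetramer library 4. Of the 9 called members, 1 was still called without it (Ctse), 4 without tetramer library 5 (Ctse, Ctso, Ctss and Gabarapl1), 8 without resting library 4 and 4 without resting library 5, where the lone library of a group is assumed to vary as the other pair does. With single libraries left out, called cathepsins that fell numbered 1 to 4, autophagy genes that rose 0 to 1 and autophagy genes that fell 0 to 3, while of all genes 622 to 1629 were higher and 313 to 1488 lower. All 9 directions were kept in every fit. DESeq2, limma-voom, library totals, no filter and the stricter filter (a mean of at least 20 counts) each kept the 9 calls; with library totals 2250 of all genes were lower. Among members not called, Atp6v0d2 had a log2 fold change of -0.25 with library totals, -0.043 by limma-voom, -0.042 with the replicate block and -0.54 to 0.48 with single libraries left out; Lamp1 had -0.59 to 0.31 with single libraries left out; Lamp2 had -0.12 with library totals and -0.064 to 0.47 with single libraries left out. The cause was not tested. Ctsl was called only in the fit without resting library 5, in which it passed the filter. The 2 pairs that share a column number cannot show whether the numbers pair the libraries (the correlation of their deviations across genes was 0.05); with the number as a replicate block 1693 genes were higher and 1468 lower, and Map1lc3b was not called (edgeR adjusted p = 0.0541), which left 3 autophagy genes lower. The low counts of Ctsl, Lamp3, Map1lc3a and Atp6v1a limit what could be detected.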
